A study of Homo sapiens with 47 samples.

Results

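The genes described here are private to one line of HAP1 cells: in exactly 1 of 8 lines they stood apart from all the others. A gene was chosen when the lowest FPKM of the line's 4 libraries was over 2 times the highest of the other 28 libraries, or the highest was under 1/2 of the lowest of the other 28, and its mean was at least 2 FPKM on the higher side. FPKM is the number of sequenced fragments per kilobase of transcript, scaled to the sequencing depth of the library. The rule picked 46 of the 57507 genes in the table, of which 12740 had enough signal to be chosen in at least 1 line and direction (0.361% were chosen). Because the genes were chosen by the HAP1 values themselves, those values are given for the 46 genes as a description, without a test.

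The study made cells with impaired NUP58, a nucleoporin of the nuclear pore's central channel, to follow how human cells adapt to damage of an essential gene. RNA-seq was run on 47 libraries, 32 of HAP1 and 15 of HCT116. HAP1 is a near-haploid line derived from a chronic myeloid leukemia, and HCT116 is a colorectal carcinoma line. The HAP1 lines had 4 libraries each: unedited wild-type cells (WT), cells that received a Cas9 vector with no guide RNA (EV), and 6 NUP58-mutated lines (C1 to C6), each grown from a single cell and therefore 1 clone. The labels do not say whether EV is 1 clone. The HCT116 libraries were 4 of 1 clone edited on both NUP58 alleles and 11 controls that were either wild-type or carried Cas9 without guide RNA, and for 2 of these controls the labels conflict on which of these they were.

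A clone inherits from its founder cell not only the intended edit but also that cell's own pattern of active and silenced genes, its chromosomes and its chance mutations. Silenced states of promoters can be copied through many divisions, so that a gene may be on in one clone and off in its sister clones. These statements are background, and none of them was tested here.

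NUP58 itself was at 34.3 to 50.4 FPKM in WT and 35.3 to 45.0 in EV, against 7.98 to 28 in the 6 clones, highest in C4 at 22.6 to 28. In HCT116 the library labelled clone replicate 3 had 44.7 FPKM of NUP58 and the other 3 clone libraries 23.3 to 25.3, while the library labelled control replicate 8 had 23.9 and the other 10 controls 28.7 to 50.3. Both libraries go against their labels, so HCT116 results are given with and without them. The deposited FPKM of a HAP1 library summed to 604053 to 654081, with 18217 to 19456 genes above 0. The number of fragments behind a value is unknown. The blood marker GATA2 was expressed in HAP1 (mean 16.8 FPKM in WT), while PTPRC, which encodes the pan-leukocyte surface protein CD45, was at 0 in every HAP1 library.

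C6 held most of the set. It had 34 private genes that were higher (0.282% of the genes that could be called there) and 4 that were lower (0.0338%). C5 had 4, all higher (0.0338%), C4 had 2, both higher (0.017%), and EV had 2, both lower (0.0168%). WT, C1, C2 and C3 had none in either direction. When a gene was only required to have all 4 libraries beyond the other 28, at any fold, C6 had 424 such genes (3.44%) and C5 had 241 (1.99%), and the other 6 lines had 1 to 18 (0.0661% for WT, EV with 0.149%, C1 with 0.0083%, and 0.0748%, 0.0331% and 0.05% for C2, C3 and C4). Among those genes 234 were higher and 190 lower in C6, and 64 were higher and 177 lower in C5. The C5 genes that were lower did not reach the 2-fold gap, and at a gap of 1.5-fold 11 of them did.

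**Figure D1:**
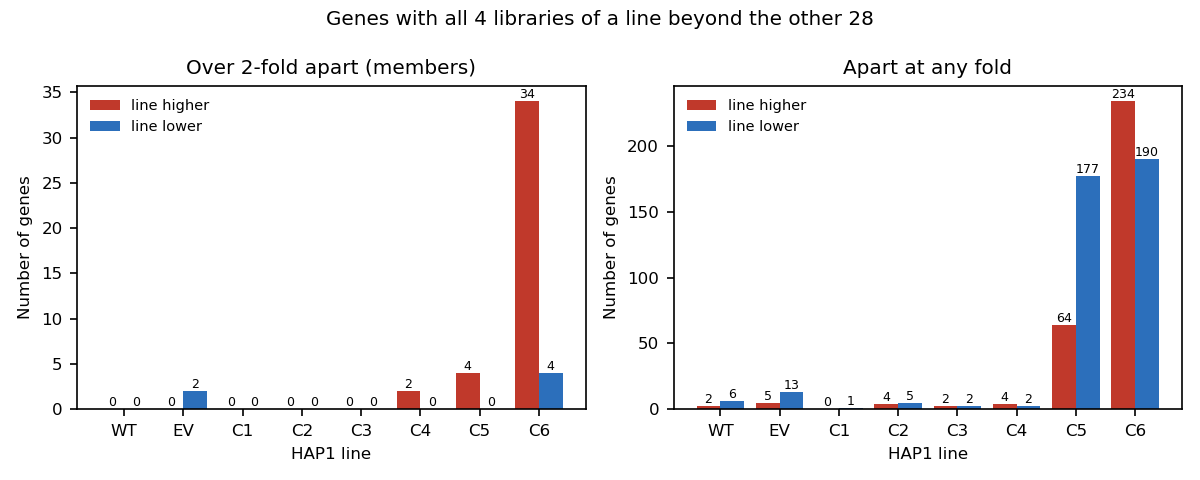
Number of genes (y axis) in each HAP1 line (x axis) whose 4 libraries were all above (red) or all below (blue) the other 28, over 2-fold apart on the left and at any fold on the right. On the left C6 had 34 higher and 4 lower and C5 4 higher, and on the right C5 had 64 higher and 177 lower.

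The members closest to the threshold were PLPPR5 in C6, whose lowest C6 library was at 3.61 FPKM against a highest of 1.79 elsewhere, and ELFN1-AS1, whose highest C6 library was at 1.40 against a lowest of 2.99 elsewhere. Just outside stood RYR2, which encodes an intracellular calcium release channel, at 2.89 in its lowest C6 library against 1.47 elsewhere. MAP6, a microtubule-stabilizing protein, was just outside on the lower side, at 0.612 in its highest C5 library against 1.14 elsewhere.

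Both private genes of the EV line encode regulators of cell identity and were low there. TAL1, a basic helix-loop-helix transcription factor of blood stem and progenitor cells (chr1:47216290-47232225, minus strand, GRCh38 with GENCODE 44, as for all gene positions here), was at 1.63, 1.12, 1.12 and 1.17 FPKM in the 4 EV libraries. The other 28 libraries had a lowest of 12.1, a median of 18.5 and a highest of 23.9. No EV library came near the rest, and the other 7 lines were close to each other, with means of 15 in C6 to 20.6 in C5. PDGFRA, a receptor tyrosine kinase for platelet-derived growth factor (chr4:54229280-54298245, plus strand), was at 0.595, 0.717, 0.505 and 0.546 FPKM in EV. Outside EV it had a lowest of 3.85, a median of 12.3 and a highest of 29.5. Unlike TAL1, PDGFRA was graded among the other lines, from a mean of 6.11 in WT through 9.84 in C3 and 14.9 in C4 to 24.8 in C5. The gap between the nearest libraries was 7.40-fold for TAL1 and 5.37-fold for PDGFRA. EV and WT are both unedited at NUP58, so these 2 genes separate the 2 controls from each other.

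The start regions of the private genes of EV and C4 are shown because these genes differed widely in level between lines of one cell type. CG dinucleotides, the positions where human DNA can be methylated, are marked. Each is a RefSeq promoter window of GRCh38.p14, 250 bases before to 50 after a start, read 5′ to 3′ on the gene's strand, with every CG in capitals. TAL1 and PDGFRA have 2 windows each, and the first listed of each is printed. The printed TAL1 window lies wholly upstream of the gene as GENCODE places it. The other TAL1 window, chr1:47231666-47231965, lies inside the gene. The windows are chr1:47232286-47232585 on the minus strand for TAL1, chr4:54229043-54229342 on the plus strand for PDGFRA, chrX:103356256-103356555 on the plus strand for TCEAL9 and chr3:121660854-121661153 on the minus strand for HCLS1.
TAL1: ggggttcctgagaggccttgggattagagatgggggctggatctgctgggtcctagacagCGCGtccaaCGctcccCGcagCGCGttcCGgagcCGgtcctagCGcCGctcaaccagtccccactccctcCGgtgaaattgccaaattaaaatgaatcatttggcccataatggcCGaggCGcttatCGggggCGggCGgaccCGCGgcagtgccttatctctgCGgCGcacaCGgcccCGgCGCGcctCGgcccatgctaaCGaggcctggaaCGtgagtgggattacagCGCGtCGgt
PDGFRA: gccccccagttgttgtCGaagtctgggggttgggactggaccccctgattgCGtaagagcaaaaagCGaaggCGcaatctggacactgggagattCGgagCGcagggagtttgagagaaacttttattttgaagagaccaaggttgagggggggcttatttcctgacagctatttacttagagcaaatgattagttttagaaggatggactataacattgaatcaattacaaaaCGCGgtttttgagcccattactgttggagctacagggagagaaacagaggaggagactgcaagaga
TCEAL9: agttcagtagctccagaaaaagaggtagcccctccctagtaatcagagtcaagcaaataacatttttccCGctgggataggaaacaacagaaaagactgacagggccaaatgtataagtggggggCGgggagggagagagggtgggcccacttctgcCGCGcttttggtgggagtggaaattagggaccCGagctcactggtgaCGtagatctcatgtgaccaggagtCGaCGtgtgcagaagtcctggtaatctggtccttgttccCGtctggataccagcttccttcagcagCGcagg
HCLS1: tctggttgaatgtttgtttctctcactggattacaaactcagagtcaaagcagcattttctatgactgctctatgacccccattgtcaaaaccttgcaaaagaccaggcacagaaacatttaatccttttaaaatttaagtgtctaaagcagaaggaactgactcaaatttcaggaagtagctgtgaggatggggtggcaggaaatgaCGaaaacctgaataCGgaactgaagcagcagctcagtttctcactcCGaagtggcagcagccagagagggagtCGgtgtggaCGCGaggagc
The printed TAL1 window held 30 CG, as many as or more than 79.3% of the 35116 promoters in the table, whose median was 14. That of PDGFRA held 8, TCEAL9 10 and HCLS1 6, where 41.6%, 45.3% and 36.8% of promoters held at most as many. The window not printed held 19 CG for TAL1 and 32 for PDGFRA, so the order of these genes by CG depends on the start taken. At least 1 CG was present in 96.0% of all promoters. The letters TATAAA, searched on both strands, were in none of the 4 windows and in 11.5% of all promoters.

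Genes next to the EV pair and genes that work with it were tested, since the rule did not use them. The test compared each line with the mean of the other 7 by limma on log2(FPKM + 1), where a difference understates the change of low genes. Differences are given ± SE with Benjamini-Hochberg adjusted p, and a gene counts as changed at an adjusted p under 0.05. A change against the mean of 7 lines may be shared by some of them. In EV 2.72% of 14397 genes tested were higher and 2.64% lower. Of 14 relatives and partners tested for TAL1 and PDGFRA, 2 fell and none rose, and both are partners of TAL1. GATA2, a zinc finger factor that binds DNA with TAL1, was at 15.8 ± 1.55 FPKM (SD, n = 4) in EV against a median of 21.8 elsewhere, and fell by a log2 difference of 0.47 ± 0.0969 (limma, adjusted p = 0.00304). TCF12, an E protein that pairs with TAL1, was at 38.6 ± 2.78 FPKM against a median of 58.5 and fell by 0.51 ± 0.0798 (limma, adjusted p = 0.000138). The lowest of the other libraries, at 15.3 FPKM for GATA2 and 35.5 for TCF12, lay below the EV mean of each gene. GATA2 was nearly as low in WT, at 16.8 ± 1.26 FPKM (SD, n = 4), where TAL1 was at 18.1 ± 3.00, and the clones had means of 20.5 to 31.6. TCF12 was at 44.2 ± 4.06 in WT and 42.6 ± 5.71 in C4, the lines nearest to EV.

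None of the 8 genes tested within 500 kb of TAL1 or PDGFRA passed the test in EV, and 2 had an unadjusted p under 0.05 (limma). STIL, a centriole assembly gene 17.9 kb from TAL1, differed by -0.05 ± 0.126 (limma, adjusted p = 0.883). KIT, the stem cell factor receptor beside PDGFRA, differed by -0.05 ± 0.252 (limma, adjusted p = 0.940). CHIC2, on the other side of PDGFRA, differed by -0.41 ± 0.137 (limma, adjusted p = 0.0801). Of 8 epithelial markers tested in EV 3 rose (KRT8, KRT18 and ESRP1) and none fell. Their median difference was 0.57, against 0.01 over all genes. The mesenchymal markers did not share one direction: of 11 tested, SPARC rose and ZEB2 fell. WT was close to EV for 4 of these 5, with means of 10.0 and 12.5 FPKM for KRT8, 37.5 and 40.6 for KRT18, 18.2 and 16.0 for SPARC, and 7.99 and 8.36 for ZEB2. The blood list without TAL1 summed to 35.7 to 41.2 FPKM over 14 genes in EV and to 36.2 to 43.3 in WT. PTPRC, SPI1 and GATA1, which define blood cells, were at 0 in both.

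The private genes of C4 were a pair of genes on different chromosomes, both higher. TCEAL9, a small nuclear protein of the X-linked TCEAL and BEX cluster (chrX:103356489-103358462), was at 57.4, 45.3, 53.6 and 66.6 FPKM in C4. The other libraries had a lowest of 0.0714, a median of 2.11 and a highest of 10.3. Its other levels were uneven: C5, C1 and WT had means of 8.11, 6.75 and 5.80, whereas EV and C6 were at 0.216 and 0.237. HCLS1, an actin-binding cortactin relative of blood cells (chr3:121631399-121660927, minus strand), was at 23.4, 19.9, 22.7 and 26.1 FPKM in C4. Elsewhere it had a lowest of 0.158, a median of 0.633 and a highest of 8.37, with C5 again next at a mean of 7.07 and C1 at 1.20. The nearest-library gap was 4.41-fold for TCEAL9 and 2.37-fold for HCLS1, and the nearest library was from C5 for both.

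No gene tested around the C4 pair passed the threshold there. Of 11 relatives and partners tested by limma none did, with 5 at an unadjusted p under 0.05, and of the 16 genes within 500 kb none did, with 4 at an unadjusted p under 0.05 (0.813% of all genes were called in C4). BEX3, 17.9 kb from TCEAL9 in the same cluster, was at 210.0 FPKM in C4 and differed by 0.25 ± 0.118 (limma, adjusted p = 0.690). GOLGB1, a Golgi protein whose gene lies 2.27 kb from HCLS1, differed by 0.21 ± 0.135 (limma, adjusted p = 0.954).

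C5 held 4 higher genes of unlike function. EPCAM, the epithelial cell adhesion molecule (chr2:47345158-47387601), was at 15, 16.7, 10.5 and 16.2 FPKM in C5. The other 28 libraries had a lowest of 0.181, a median of 0.481 and a highest of 1.25. The lowest C5 library was 8.40-fold above the highest of the rest. ZNF788, a zinc finger gene of the cluster on chromosome 19 that GENCODE lists as the transcribed pseudogene ZNF788P (chr19:12092468-12113048), was at 9.17, 7.29, 9.71 and 10.1 FPKM. Outside C5 it had a lowest of 0.212, a median of 0.549 and a highest of 1.76. Its reads may be shared with near copies, among them ZNF20, which overlaps it, and the authors' counting is not stated to use strand.

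NPR3, the clearance receptor that removes natriuretic peptides (chr5:32689070-32791724), was at 3.10, 3.99, 2.85 and 1.48 FPKM in C5. The other 7 lines had a lowest of 0, a median of 0.0568 and a highest of 0.383. SORBS2, an adaptor of the actin cytoskeleton (chr4:185585444-185956652, minus strand), was at 3.61, 3.86, 3.40 and 2.01 FPKM. Elsewhere it had a lowest of 0, a median of 0.164 and a highest of 0.852, and was listed at 0 in 9 of 28. Replicate 4 was the lowest of the 4 C5 libraries for NPR3 and SORBS2 and the highest for ZNF788.

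The EPCAM level in C5 did not come with an epithelial program at the level of HCT116. The other 14 epithelial markers summed to 40.8 to 48.3 FPKM in C5, 62.1 to 67.9 in WT, 28.8 to 58.6 in the other 5 clones and 1480 to 2403 in the HCT116 controls. KRT8, a keratin of simple epithelia, fell in C5 by 0.77 ± 0.167 (limma, adjusted p = 0.00193), but its mean of 2.54 FPKM in C5 was close to the 2.57 of C2 and above the 1.49 of C6. CDX2, an intestinal transcription factor, rose in C5 by 0.46 ± 0.146 (limma, adjusted p = 0.0413). CDH1, which encodes E-cadherin, had a mean of 0.0141 FPKM in C5 and 14.5 in the HCT116 controls. Of the genes near it, 1 of 7 neighbours of EPCAM rose, FBXO11, by 0.24 ± 0.0678 (limma, adjusted p = 0.0215).

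The neighbours of ZNF788 rose with it. Of 18 genes tested within 500 kb, 12 rose in C5 and all 18 had a difference above 0, from 0.04 to 1.02 with a median of 0.47, where 5.49% of all genes rose and 5.58% fell. The largest was CTD-2006C1.2, an uncharacterized transcript, at 1.02 ± 0.191. Its C5 mean was 1.73 FPKM, against a median of 0.227 and a highest of 1.29 elsewhere. It may have reached the test's minimum mean of 1 FPKM only through C5. Its difference is therefore given without a p, although it is counted in the 12. ZNF440 followed at 0.95 ± 0.145 (limma, adjusted p = 2.47e-05) and ZNF44 at 0.64 ± 0.147 (limma, adjusted p = 0.00341). Over chromosome 19 as a whole 47 of 1001 genes rose and 45 fell in C5, with a median of -0.02. The zinc finger genes of the table showed 45 that rose and 11 that fell of 447 tested in C5. These genes share sequence, and the part of shared reads in these values was not tested. Around SORBS2, 2 of 9 genes rose (CYP4V2 at 0.60 ± 0.15 and FAM149A at 0.54 ± 0.179), and of the 3 around NPR3 none passed (limma, 0 at an unadjusted p under 0.05). None of 6 relatives of the C5 genes passed the test (limma, 1 at an unadjusted p under 0.05).

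**Figure D2:**
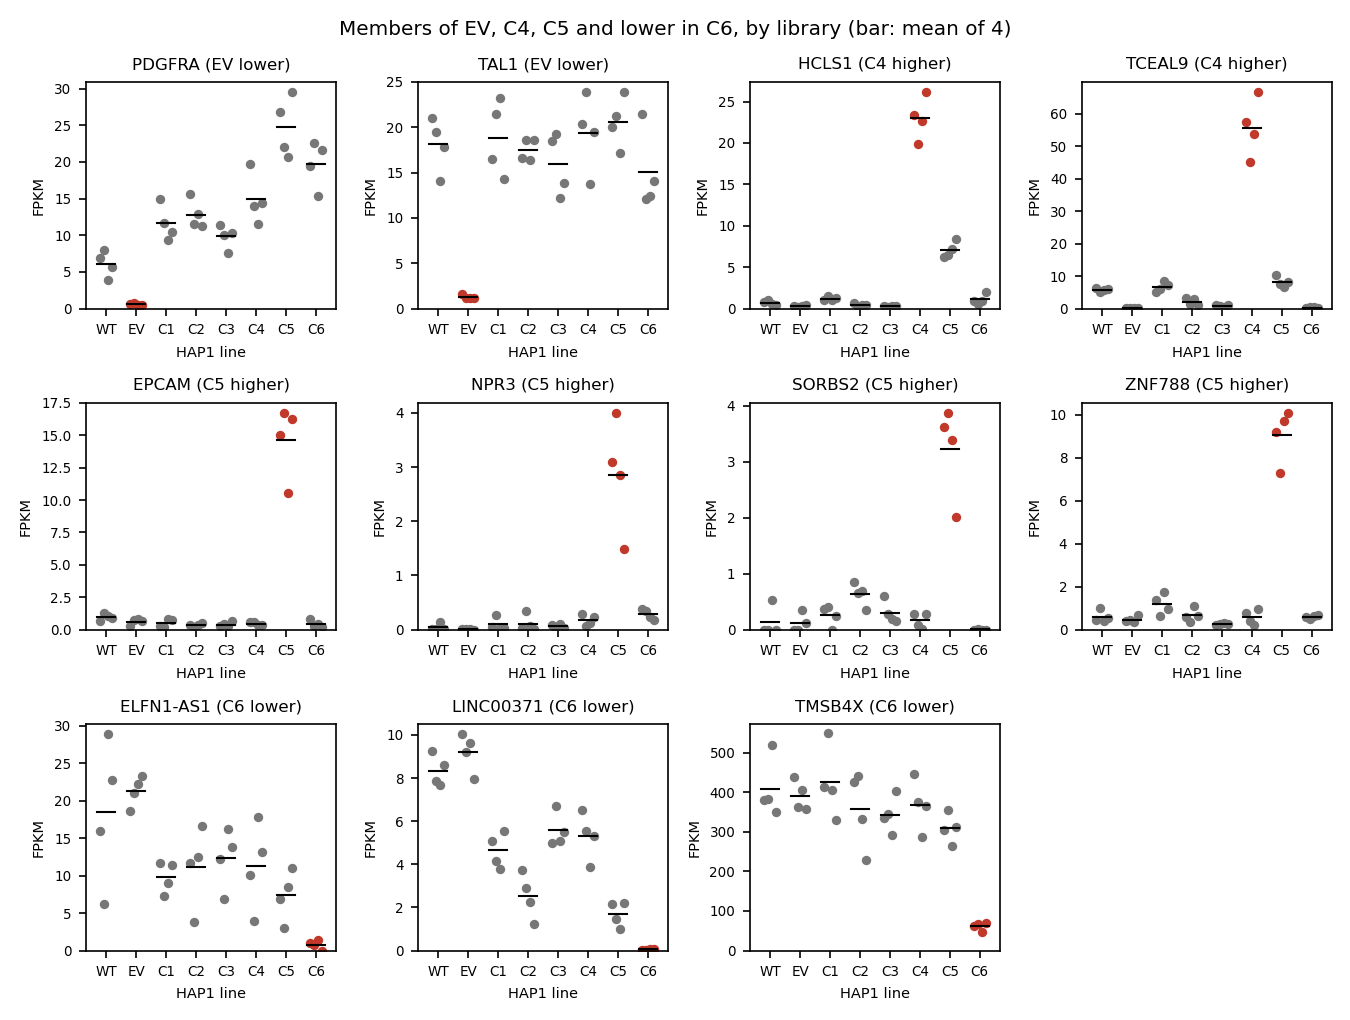
FPKM (y axis, linear from 0) of the private genes of EV, C4 and C5 and 3 of the lower genes of C6 in the 32 HAP1 libraries, by line (x axis), each point 1 library, red in the line the gene is private to and with a bar at the mean of 4. TAL1 sat at 1.12 to 1.63 in EV and 12.1 to 23.9 elsewhere, and TCEAL9 at 45.3 to 66.6 in C4 and at most 10.3 elsewhere.

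C6 had 4 genes that were lower than everywhere else, of which 3 are described. LINC00371, listed by GENCODE 44 as the protein-coding gene C13orf42 (chr13:51082119-51200252, minus strand), was at 0.0469, 0.0456, 0.0937 and 0.0805 FPKM in C6. Outside C6 it had a lowest of 0.986, a median of 5.21 and a highest of 10.0, a nearest-library gap of 9.86-fold. TMSB4X, the abundant actin-sequestering protein thymosin beta 4 (chrX:12975110-12977227), was at 61.7, 67.9, 48.1 and 69.5 FPKM in C6. Elsewhere it had a lowest of 228, a median of 364 and a highest of 548, and the other lines kept close, from a mean of 309 in C5 to 424 in C1. TMSB4X has processed pseudogenes and a near-identical homolog, so its level is uncertain by the reads they share. It was the most abundant member.

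ELFN1-AS1, a long noncoding RNA (chr7:1738630-1742291, minus strand), was at 1.04, 0.790, 1.40 and 0 FPKM, where the last value was listed at 0. Elsewhere it had a lowest of 2.99, a median of 12 and a highest of 28.8, and the other lines ran from a mean of 7.36 in C5 to 21.3 in EV.

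Around LINC00371, 5 of 7 genes tested also fell in C6 and all 7 had a difference below 0 (7.44% of genes fell in C6). The 5 include a transcript that overlaps LINC00371 and may share its reads. FAM124A, 22.1 kb away, fell by 1.65 ± 0.105 (limma, adjusted p = 8.05e-13), from 6.33 to 22.9 FPKM in the other libraries to a mean of 3.82 in C6. INTS6, an Integrator complex subunit, fell by 0.49 ± 0.0836 (limma, adjusted p = 6.36e-05), and RNASEH2B, a subunit of ribonuclease H2, fell by 0.27 ± 0.0962 (limma, adjusted p = 0.0442). Counted over all of chromosome 13, genes were shifted in C6: 132 of 259 fell and 10 rose, with a median of -0.39 against 0.03 over all genes. Whether this shift runs along the whole chromosome or a part of it was not tested. The part of that shift in the level of LINC00371 was not tested.

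The neighbours of ELFN1-AS1 did not share one direction: of 10 tested, 1 rose and 1 fell. ELFN1, which overlaps ELFN1-AS1, fell by 0.88 ± 0.168 (limma, adjusted p = 0.000284), but reads of the 2 cannot be told apart without strand. Of 7 relatives tested, none fell and 2 rose, among them TMSB15A, another thymosin beta, by 0.63 ± 0.218 (limma, adjusted p = 0.0437). Over all genes 11.5% rose in C6.

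The 34 genes that were higher in C6 were mostly genes that the other lines barely expressed. Their C6 means ran from 2.00 to 22.3 FPKM with a median of 4.71. The median over the other 28 libraries was below 1 FPKM for 30 of the 34 and below 0.1 for 13, and for 13 no other library reached 1 FPKM. The median gap between the nearest libraries was 3.80-fold, from 2.01 to 31.8, with values under 0.1 FPKM set to 0.1. Within C6 the highest library was a median of 1.64 times the lowest, from 1.13 to 3.16. Replicate 4 was the highest C6 library for 15 of the 34 and replicate 3 the lowest for 18. The next-highest line was C5 for 9 genes, C1 for 7, C2 for 6, C3 and WT for 4 each, C4 for 3 and EV for 1, while over the 3237 genes with their highest mean in C6 it was C5 for 35.6%. Of the 34, 32 are protein-coding genes.

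**Figure D3:**
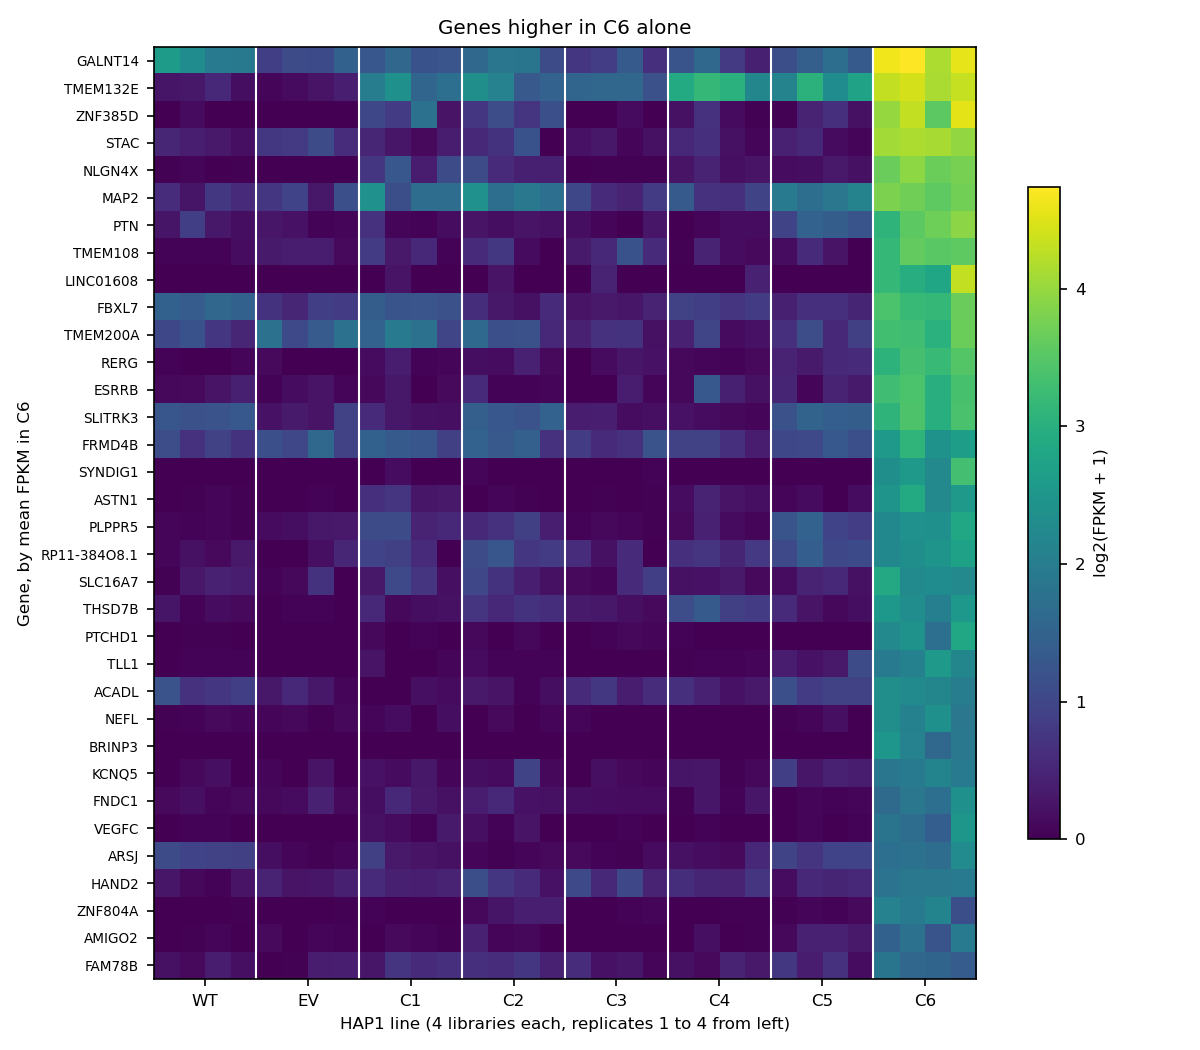
Heatmap of the 34 genes higher in C6 (y axis, ordered by mean FPKM in C6) across the 32 HAP1 libraries (x axis, 4 a line), coloured by log2(FPKM + 1). The C6 libraries are the brightest for every gene, and TMEM132E in C4 (mean 6.27 FPKM) and GALNT14 in WT (mean 3.70 FPKM) are among the brightest elsewhere.

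The 34 were sorted by role by hand, after their values were seen, as an order for the description, and 9 were placed under adhesion and synapses. SYNDIG1, which binds AMPA-type glutamate receptors at synapses, was at 4.13, 4.81, 3.68 and 8.99 FPKM in C6. In the other lines it was listed at 0 in 25 of 28 libraries and reached at most 0.116, a gap of 31.8-fold. PTCHD1, a membrane protein with a patched domain, was at 3.67, 4.39, 2.33 and 6.14 and at most 0.0795 elsewhere. BRINP3, a neural protein induced by BMP and retinoic acid, was at 4.62, 3.27, 2.05 and 2.75 and listed at 0 in all 28 other libraries. These 3 had the largest nearest-library gaps of all 46 genes.

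The other 6 of that group were less extreme. NLGN4X, a postsynaptic neuroligin, was at 11.6, 14.2, 11.8 and 12.7 FPKM in C6 and at most 1.43 elsewhere, with a near-identical homolog that may share its reads. TMEM108, a membrane protein of neurons, averaged 10.1 ± 1.5 (SD, n = 4) in C6 against at most 1.28. SLITRK3, a synaptic organizer, averaged 8.34 ± 1.38 against at most 1.84. ASTN1, which acts in neuron migration along glia, averaged 4.87 ± 1.15 against at most 0.647, with C1 next at 0.423. PLPPR5 averaged 4.55 ± 1.11 against at most 1.79, and AMIGO2, a leucine-rich repeat adhesion protein, averaged 2.12 ± 0.682 against at most 0.352.

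The neuronal cytoskeleton was represented by 2 genes. NEFL, the light neurofilament subunit, was at 4.06, 3.22, 4.20 and 2.69 FPKM in C6 and at most 0.144 elsewhere. MAP2, a dendritic microtubule protein, was at 12.9, 12, 10.8 and 12.3 in C6 and had a lowest of 0.199, a median of 1.12 and a highest of 4.28 elsewhere. NEFL was close to off in the other lines, whereas MAP2 was expressed at low level in several.

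Of 4 transcription genes, ESRRB, an orphan nuclear receptor of pluripotent cells, was at 8.80, 9.55, 6.97 and 9.30 FPKM in C6 and at most 1.49 elsewhere. ZNF385D averaged 16.7 ± 5.01 (SD, n = 4) against at most 2.42, where C1 and C2 were next with means of 1.10 and 0.935. HAND2, a helix-loop-helix factor of heart and neural crest, averaged 2.71 ± 0.136 against at most 1.20. ZNF804A averaged 2.70 ± 1.02 against at most 0.325, and its C6 replicate 4, at 1.21, was well below the other 3.

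Growth factors and signalling adaptors added 6 genes. PTN, the heparin-binding growth factor pleiotrophin, was at 7.50, 10.7, 11.9 and 14.2 FPKM in C6 and at most 1.80 elsewhere. VEGFC, which drives growth of lymphatic vessels, was at 2.54, 2.24, 1.68 and 4.72 and at most 0.269. Both encode secreted proteins. STAC, an adaptor of calcium channels, was at 15.9, 16.9, 16.5 and 14.6 and at most 1.28, and RERG, a Ras-like GTPase, was at 7.39, 9.08, 8.30 and 10.1 and at most 0.491. FBXL7, a substrate-binding subunit of a ubiquitin ligase, averaged 9.30 ± 1.70 (SD, n = 4) against at most 1.94. FRMD4B, a FERM-domain scaffold, averaged 5.51 ± 1.41 against at most 2.02.

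Metabolic enzymes and transporters were 5. GALNT14, which starts O-linked glycosylation, was at 23.9, 25.7, 16.8 and 22.6 FPKM in C6 and had a lowest of 0.331, a median of 1.49 and a highest of 5.14 elsewhere, the highest C6 level of the 34. SLC16A7, the monocarboxylate transporter MCT2, was at 6.29, 3.75, 3.92 and 3.72 and at most 1.07. ACADL, long-chain acyl-CoA dehydrogenase, averaged 3.59 ± 0.429 against at most 1.31. KCNQ5, a potassium channel subunit, averaged 2.95 ± 0.340 against at most 0.962, and ARSJ, an arylsulfatase, averaged 2.72 ± 0.780 against at most 1.11.

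Of the remaining 8, TLL1, a tolloid-like protease, averaged 3.61 ± 0.888 FPKM (SD, n = 4), THSD7B, a thrombospondin-domain protein, 4.17 ± 0.781 and FNDC1, a fibronectin-domain protein, 2.84 ± 0.952. TMEM132E averaged 18.7 ± 1.63 and was also at 6.27 in C4 and 5.06 in C5. TMEM200A averaged 9.15 ± 1.92 and FAM78B 2.00 ± 0.427. The noncoding transcripts were LINC01608, at 7.87, 6.71, 5.94 and 18.8 in C6 and at most 0.373 elsewhere, and RP11-384O8.1, which averaged 4.45 ± 0.836.

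Genes related to the 34, or partnered with them, were tested in C6, and 17 of 87 rose and 9 fell. Over all genes 11.5% rose and 7.44% fell in C6. The largest rise was PLPPR4, a neuronal relative of PLPPR5 whose gene lies 36.4 kb from it, at 10.2 ± 2.36 FPKM in C6 against a median of 0.206 and a highest of 3.93 elsewhere, a difference of 2.76 ± 0.126 (limma, adjusted p = 5.05e-16). PTPRZ1, a receptor of pleiotrophin, was at 1.16 FPKM in C6 and at most 0.204 elsewhere. It reached the test's minimum of 1 FPKM only through C6. Its difference of 1.07 ± 0.096 is therefore given without a p, although it is counted in the 17. NRP2, a coreceptor of VEGFC, rose by 0.91 ± 0.18 (limma, adjusted p = 0.000452). The highest library of NRP2 elsewhere, at 2.20 FPKM, lay above its C6 mean of 2.15. The other 3 tested partners of PTN and VEGFC did not pass: SDC3 differed by -0.03 ± 0.188, NCL by -0.18 ± 0.217 and FLT4 by -0.25 ± 0.183.

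Family members of C6 genes moved in both directions. GALNT13 rose by 1.56 ± 0.181 (limma, adjusted p = 1.81e-07), NLGN1, a neuroligin, by 0.94 ± 0.115 (limma, adjusted p = 4.11e-07) and MAPT, which encodes tau, by 1.01 ± 0.225 (limma, adjusted p = 0.00158). EMB, a chaperone partner of SLC16A7, rose by 0.59 ± 0.0728 (limma, adjusted p = 4.71e-07), while SLC16A3, the lactate exporter MCT4, fell by 1.39 ± 0.155 (limma, adjusted p = 8.77e-08). MAP1A, a microtubule protein of neurons, fell by 0.90 ± 0.249 (limma, adjusted p = 0.00974), and MDK, the relative of PTN, fell by 0.43 ± 0.103 (limma, adjusted p = 0.00322) from a median of 730.1 to a mean of 525.9 FPKM. Over all 5 sets of line and direction, 125 relatives and partners were tested, of which 19 rose, 11 fell and 95 did not pass. Those of the C6 higher genes made up 87 of the 125, and in C6 11.5% of all genes rose and 7.44% fell.

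Among 88 genes within 500 kb of the C6 higher genes, 18 rose and 3 fell, where 11.5% of all genes rose and 7.44% fell in C6. CPS1, a urea cycle gene near ACADL, rose by 0.98 ± 0.184 (limma, adjusted p = 0.000242), and CAMK2D, a calmodulin kinase near ARSJ, by 0.65 ± 0.138 (limma, adjusted p = 0.000996). LINC01351, 0.147 kb from BRINP3, and RP11-13P5.2, which overlaps FNDC1, reached the test's minimum of 1 FPKM only through C6. Their C6 means were 2.09 and 1.05 FPKM, against at most 0.757 and 0.362 elsewhere. Their differences of 1.47 ± 0.151 and 0.89 ± 0.121 are given without a p, although both are counted in the 18. Reads of RP11-13P5.2 may be shared with FNDC1. Of the 34 genes, 26 had a neighbour that could be tested.

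Levels among the 7 lines a member was not private to are given as a description. The highest line mean was over 2 times the lowest in 28 of 34 higher genes of C6 (10.7% of all genes that could be called), 3 of 4 lower genes of C6 (9.63%), all 4 of C5 (11.3%), both of C4 (13.3%) and 1 of 2 of EV (12.9%). TAL1 and TMSB4X were not among them, each with a ratio of 1.37. The 6 higher genes of C6 that were not, with values under 0.1 FPKM set to 0.1, were SYNDIG1, PTCHD1, BRINP3, NEFL, LINC01608 and VEGFC, whose line means elsewhere reached at most 0.139 FPKM. These are libraries the rule used, and most of the genes passed its minimum through 1 line and were low in the others, so nothing is read from these shares.

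In HCT116, which the rule did not use, 9 of 46 members (19.6%) had a mean of at least 1 FPKM over the 11 controls. Of the 12740 genes that could be members, 89.6% did. Most members were low in all HAP1 lines but 1, so a low share elsewhere follows from how they were chosen. TAL1, PDGFRA and HCLS1 stayed below 1 FPKM in every control. The expressed members were TCEAL9, EPCAM, SLC16A7, GALNT14, MAP2, TMEM200A, ARSJ, TMSB4X and ELFN1-AS1. EPCAM had a lowest, median and highest of 132, 189 and 253 FPKM in the controls, and TCEAL9 of 29.4, 34.2 and 39.9, so that TCEAL9 in C4 lay above every HCT116 control.

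None of these 9 genes was called between the HCT116 clone and its controls by the study's thresholds of an unadjusted p under 0.01 and a fold over 2 (limma, 0.177% of 12960 genes called), and none had an unadjusted p under 0.05. EPCAM was at 112, 117, 272 and 102 FPKM in the clone, a difference of -0.37 ± 0.227 (limma, adjusted p = 0.569). The third value is the library labelled clone replicate 3. TMSB4X was at 442, 483, 246 and 440.0 in the clone, a difference of 0.45 ± 0.269 (limma, adjusted p = 0.567). GALNT14 differed by 0.74 ± 0.597 and MAP2 by -0.49 ± 0.245. The fit takes the controls as 1 group, although their titles name 3 lines: WT (3 libraries), EV1 (4) and EV2 (4). GALNT14 split these controls, at 0 to 0.127 FPKM in replicates 3, 6, 7 and 11 and at 2.64 to 6.96 in the other 7. The 4 low libraries are titled EV2 (2 libraries), EV1 and WT, so the split does not follow the titles. For the one titled WT, replicate 11, the genotype label says Cas9 without guide RNA, so its line is uncertain. TMEM200A split the controls alike, at 45.2 to 59.5 FPKM in these 4, 40.7 in replicate 8 and 20.9 to 23.5 in the rest. Whether the titles are right was not tested.

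Without the 2 libraries whose NUP58 goes against their labels, 1.47% of 12985 genes were called and 990 had an adjusted p under 0.05, against 0 with all 15 libraries (limma, where 1342 genes had an unadjusted p under 0.05). Still none of the 9 members was called, because none passed both thresholds. EPCAM then was 0.74 ± 0.176 lower on the log2 scale in the clone (limma, adjusted p = 0.0202), under the 2-fold limit, and ELFN1-AS1 was 0.47 ± 0.149 lower (limma, adjusted p = 0.0647). The labels do not say that replicates came from separate cultures. The paper describes the RNA-seq replicates as biological, but a legend on HCT116 RNA-seq calls them technical. The p-values measure the spread between these libraries, which may be technical.

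**Figure D4:**
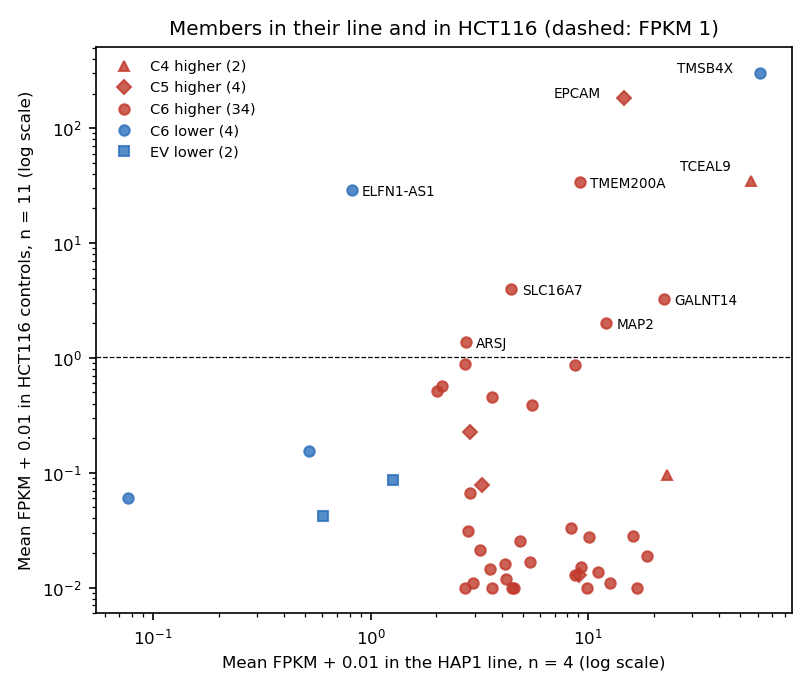
Mean FPKM of each member in the 11 HCT116 controls (y axis, log scale) against its mean in the 4 libraries of the HAP1 line it is private to (x axis, log scale), both with 0.01 added and marked by line and direction. The 9 named genes lie above the dashed line at 1 FPKM, with TMSB4X and EPCAM the highest.

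The members were spread over the genome. Chromosomes 2, 3 and 4 held 6 each, the X chromosome and chromosome 1 held 5 each, and chromosomes 6 and 12 held 3 each. Of all genes that could be members, 6.56% lay on chromosome 2, 5.60% on chromosome 3, 3.59% on chromosome 4, 3.46% on the X and 9.96% on chromosome 1. One pair of the same line and direction lay within 1 Mb: MAP2 and ACADL, 452979 bases apart, both higher in C6. KCNQ5, TMEM200A and FNDC1, higher in C6, lie on chromosome 6, where 216 of 714 genes tested fell and 89 rose in C6. Those counts are for the whole chromosome. Within 500 kb of KCNQ5, 1 of 6 genes rose and 1 fell. Within 500 kb of FNDC1, 1 of 6 rose and none fell, and none of 2 by TMEM200A passed.

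For 37 of 46 members (80.4%) at least 1 RefSeq promoter window was found, and the median observed-over-expected CG ratio, taken as the median over a gene's windows, was 0.70. Of these, 22 (59.5%) were over 0.6, against 47.9% of the 27305 genes in the promoter table. A window was found for 77.2% of the genes that could be members, but their ratios were not summarized. The promoter table also holds genes that could not be members, so no excess is read from its shares. TATAAA was in at least 1 window of 3 of the 37 genes (SORBS2, ESRRB and TLL1), or 8.11%, and of 14.0% of the genes in the promoter table.

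None of 53 nucleoporins and karyopherins, none of 20 imprinted genes, 19 p53 targets, 18 ATF4 amino acid response genes or 14 interferon-stimulated genes that could be members was private to a line. Nor were any of 19 cadherins or 67 G protein-coupled receptors. Of 394 zinc finger genes 3 were members (ZNF788, ZNF385D and ZNF804A), of 214 solute carriers 1 was (SLC16A7), of 74 ion channel genes 1 was (KCNQ5), and of 78 growth factors, cytokines and their modulators 3 were (VEGFC, and SLITRK3 and PDGFRA, which that list takes in by the start of their symbols). With 0.361% of all genes chosen, a count of 0 in lists of this size says nothing about their genes. In bulk RNA fewer cells expressing a gene and less RNA per cell cannot be told apart.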

How the data were processed

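RNA-seq was measured in 47 libraries, 32 of HAP1 and 15 of HCT116. Per the labels and the study's methods, the authors checked reads with FastQC, trimmed adaptors, aligned to GRCh38 with STAR, and estimated gene values with RSEM, and the deposited table holds FPKM for 57507 genes (versions not given in the sources used here). Depth per library is unknown and no counts are used. No library carried the same values as another. Groups came from the labels.

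The rule described in the report was applied to the deposited FPKM, with no test. Ratios set values under 0.1 FPKM to 0.1. For HCT116 the test was limma (version 3.58.1, R version 4.3.3; functions lmFit and eBayes, trend on) on log2(FPKM + 1) for genes with a mean of at least 1 FPKM, with Benjamini-Hochberg adjustment over all genes tested, and a call needed an unadjusted p under 0.01 and a fold over 2. A second limma fit compared each HAP1 line with the mean of the other 7 over 14397 genes that reached a mean of 1 FPKM overall or in a line. It was added after the data were seen, and is used only for genes that are not members. A gene can enter this fit through 1 line alone, and its rise in that line is then no independent result. Relatives, partners and role groups were also chosen then. Both fits were tested on simulated data. Positions came from GENCODE 44 (56373 of 57507 genes matched by identifier, 45 of 46 members), and promoter windows from RefSeq.

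The members and lists were chosen with earlier results of these data known. The text names the 5 members with the largest gap in each line and direction, all members where there were 5 or fewer, members in a fixed list, and the genes beside the threshold. Results on 1 member and 1 neighbouring gene are not reported here. The other members, and all relatives and neighbours, were named for their function or size of change after values were seen. Alternatives covered the fold and FPKM minimums, scaling, pseudocount, a replicate block and leaving out each library.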

Additional observations from a re-analysis of the deposited data

Results flagged for a closer look

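Among 54 groups of 4 libraries examined, 6 had 1 library far from the other 3, by the gap to its nearest neighbour as a share of the group's range (Dixon's test). Chance gives about 1 in 20 such groups. In the HCT116 clone the library labelled replicate 3 had 272.098 FPKM of EPCAM against 102 to 117 in the other 3, and 34.9407 FPKM of ELFN1-AS1 against 19.5 to 21.7. The same library has NUP58 at the level of most controls. In C6, replicate 4 had 18.8073 FPKM of LINC01608 against 5.94 to 7.87 and 3.88321 FPKM of ARSJ against 2.24 to 2.41, and replicate 1 had 6.28851 FPKM of SLC16A7 against 3.72 to 3.92. In EV, replicate 1 had 1.62903 FPKM of TAL1 against 1.12 to 1.17, still below the 12.1 of the lowest library elsewhere.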

How the results depend on the processing

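The 46 private genes became 99 at a fold of 1.5, 29 at a fold of 3, 26 at a mean of at least 5 FPKM, 85 with no minimum and 28 with 1 added to FPKM. Leaving out 1 HAP1 library gave 46 to 57 genes and lost at most 1 member. In HCT116 the 23 genes called became 12 with an unmoderated test, 0 at an adjusted p under 0.05, 175 without all libraries numbered 3, 191 without both libraries whose NUP58 goes against the label (chosen after seeing the data), and 8 to 147 without 1 library. Single libraries moved that count by over 1.5 times: without clone replicates 1, 2 and 4 it was 8, 10 and 10, without the library labelled clone replicate 3 it was 147, without control replicates 3, 7 and 11 it was 15, 15 and 14, and without control replicate 8 it was 44. No member was called in HCT116 under any of these settings. In the line fits, leaving out 1 library gave 347 to 830 genes in EV (771 with all, and 347, 405 and 353 without EV replicates 1, 2 and 4), 54 to 124 in C4 (117 with all, and 72 and 54 without C4 replicates 1 and 4), 1067 to 1725 in C5 and 1979 to 2967 in C6, 21 to 33 changed relatives (30 with all), and 4 to 6 changed listed markers (5 with all). With a replicate block the rule gave 55 private genes, of which 42 were among the 46, HCT116 gave 21 calls, and the line fits gave 1565 genes in EV, 195 in C4, 2548 in C5 and 3909 in C6, with 41 relatives and 9 listed markers. The pairing behind that block is only a shared number: 87 of 112 same-number pairs of HAP1 libraries and 1 of 4 in HCT116 correlated over 0.1. The cause of these shifts was not tested. The unknown depth limits the low FPKM values most.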
